A study of Mus musculus with 2 samples.

Results

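Amino acid and small peptide transporters of the solute carrier families Slc1, Slc3, Slc6, Slc7, Slc15, Slc36, Slc38 and Slc43 were followed in ribosome footprints from mouse ileum. Members were taken by symbol alone (family name, the letter a and a number), a rule that uses no measured value and gave 61 of the 22756 gene rows. The choice of these families was made with earlier results of these data known. Symbols that end in a further letter, such as Slc6a20a, are outside that pattern and are given separately below the members. Whole ileum was taken from C57BL/6 mice, wild type and at postnatal day 21, that were either fed or fasted for 48 h, with 1 library per condition. The sources used here do not give how many mice stood behind a library, and no cell type was sorted. Every difference is therefore between 2 libraries, with no replicate check and no test between conditions. A footprint is the stretch of mRNA that a ribosome protects from nuclease, so a count reflects both mRNA amount and ribosome load, and the 2 were not separated here. In tissue, fewer cells of a type and less RNA per cell cannot be told apart.

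Dietary protein reaches the enterocyte, the absorptive cell of the villus, as di- and tripeptides and as free amino acids. Peptides enter with protons, neutral amino acids with sodium, and cystine and basic amino acids by exchange, all at the brush border membrane that faces the lumen. Exit to the blood runs over exchangers and facilitators of the basolateral membrane. Several of the exchangers are heterodimers in which a light subunit of the Slc7 family carries out transport and a heavy subunit of the Slc3 family brings it to the membrane. Other members load or empty lysosomes, clear neurotransmitters, or are induced with the amino acid response, the programme that the factor ATF4 drives when amino acids run short.

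Promoter windows of 4 members show the kinds of gene described below. They stand for the peptide transporter Slc15a1, the member with most footprints, for Slc7a15, which had one of the highest fasted/fed ratios, for Slc3a1, whose level hardly differed, and for Slc7a11, a well-known ATF4 target. Sequences are from RefSeq (GRCm38.p6), 5′ to 3′ on the gene's strand, from 250 bases before to 50 after an annotated start site, and capitals mark the motifs named after them.
Slc15a1 (chr14:121505205-121505504, minus strand): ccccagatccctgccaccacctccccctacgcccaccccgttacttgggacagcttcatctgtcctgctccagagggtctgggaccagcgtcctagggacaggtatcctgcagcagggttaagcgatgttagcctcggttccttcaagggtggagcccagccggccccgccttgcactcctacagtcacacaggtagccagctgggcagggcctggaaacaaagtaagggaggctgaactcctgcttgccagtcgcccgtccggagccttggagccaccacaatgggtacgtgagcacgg
Slc7a15 (chr12:8599017-8599316, minus strand): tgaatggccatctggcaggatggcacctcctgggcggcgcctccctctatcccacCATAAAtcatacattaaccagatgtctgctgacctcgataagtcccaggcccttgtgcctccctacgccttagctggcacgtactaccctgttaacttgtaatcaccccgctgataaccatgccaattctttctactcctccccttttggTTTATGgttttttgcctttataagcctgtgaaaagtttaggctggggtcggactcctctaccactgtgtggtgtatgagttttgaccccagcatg
Slc3a1 (chr17:85028097-85028396, plus strand): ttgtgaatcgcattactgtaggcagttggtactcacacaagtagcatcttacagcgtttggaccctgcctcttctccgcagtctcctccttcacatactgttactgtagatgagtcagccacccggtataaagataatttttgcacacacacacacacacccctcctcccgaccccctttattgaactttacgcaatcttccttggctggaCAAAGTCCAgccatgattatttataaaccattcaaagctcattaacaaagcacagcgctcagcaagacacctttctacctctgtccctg
Slc7a11 (chr3:50443564-50443863, minus strand): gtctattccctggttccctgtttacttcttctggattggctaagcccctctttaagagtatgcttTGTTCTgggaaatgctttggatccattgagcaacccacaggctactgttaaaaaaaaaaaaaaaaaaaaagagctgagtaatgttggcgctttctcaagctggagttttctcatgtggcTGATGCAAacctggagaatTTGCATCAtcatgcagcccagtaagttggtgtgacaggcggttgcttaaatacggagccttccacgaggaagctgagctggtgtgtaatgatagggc

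In the Slc7a11 window TGATGNAA, the core letters of the amino acid response element, occurred on opposite strands 66 and 47 bases before the start site, and TGTTCT, a glucocorticoid receptor half-site, 185 bases before it. The window shown for Slc7a15 held TTTATG, a site of the intestinal factor CDX2, in both orientations, 195 and 45 bases before the start, and the other of the 2 windows listed for the gene held none of the 4 motifs. CAAAGTCCA, a site of HNF4, a nuclear receptor of enterocytes and hepatocytes, lay 39 bases before the start of Slc3a1. None of the 4 motifs was found in the Slc15a1 window. Each motif was searched on both strands. Windows were listed for 44 of the 61 members (64 windows). The response element core was in 5 of the 64 (7.81%) against 3.97% of all 32851 windows in the table, and the HNF4 site in 1 (1.56%) against 0.475%. The CDX2 site was in 2 (3.12%) against 11.9%, and the half-site in 13 (20.3%) against 19.0%. Windows of a gene can overlap and hold the same site, as 2 windows of Slc7a7 did for the core. By gene, the core was in a window of 4 of the 44 listed members and the half-site of 9. The half-site was in 3 of the 12 listed members that were higher in the fasted library (Slc36a1, Slc6a19 and Slc7a7) and in 3 of the 15 that were neither. It was in 0 of the 2 that were lower and in 3 of the 15 not measured. These letters describe the windows and were not tied to binding or to the ratios.

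Gene counts summed to 5558620 footprints in the fed library and to 5434252 in the fasted one. Library sizes were scaled by TMM, which sets the typical gene's ratio near 1. A member counts as measured with at least 30 counts over both libraries. Higher or lower in the fasted library means at least 1.5-fold apart, with a 95% exact interval that leaves out 1. These intervals and floors cover counting error only. Log2 values are fasted/fed ratios with 0.5 counts added to each count. Of the 61 members 40 were measured, and of these 17 (42.5%) were higher, 3 (7.5%) lower and 20 neither. Over all 11333 measured genes 17.3% were higher and 17.3% lower by the same rule. The median log2 ratio was 0.27 for the 40 members and 0.0028 for all measured genes. Dividing by the total gene count alone (plain CPM) moved every log2 ratio by -0.32. It left 13 members (32.5%) higher and 11 (27.5%) lower, against 8.86% and 31.2% of all measured genes, and turned the members' median to -0.055. All 13 were among the 17, and the 3 lower members stayed lower.

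Summed over all 61 members, counts went from 37052 in the fed library to 71602 in the fasted one, or from 0.667% to 1.32% of all gene counts. On the TMM scale the summed level was 2.47-fold higher (log2 ratio 1.31, 95% interval 1.29 to 1.32). It was carried by few genes. Slc15a1 and Slc6a19 held 38.5% of the fed and 54.6% of the fasted members' counts, and the sum without both had a log2 ratio of 0.87. The 10 members with most counts held 84.9% and 91.1%.

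**Figure D1:**
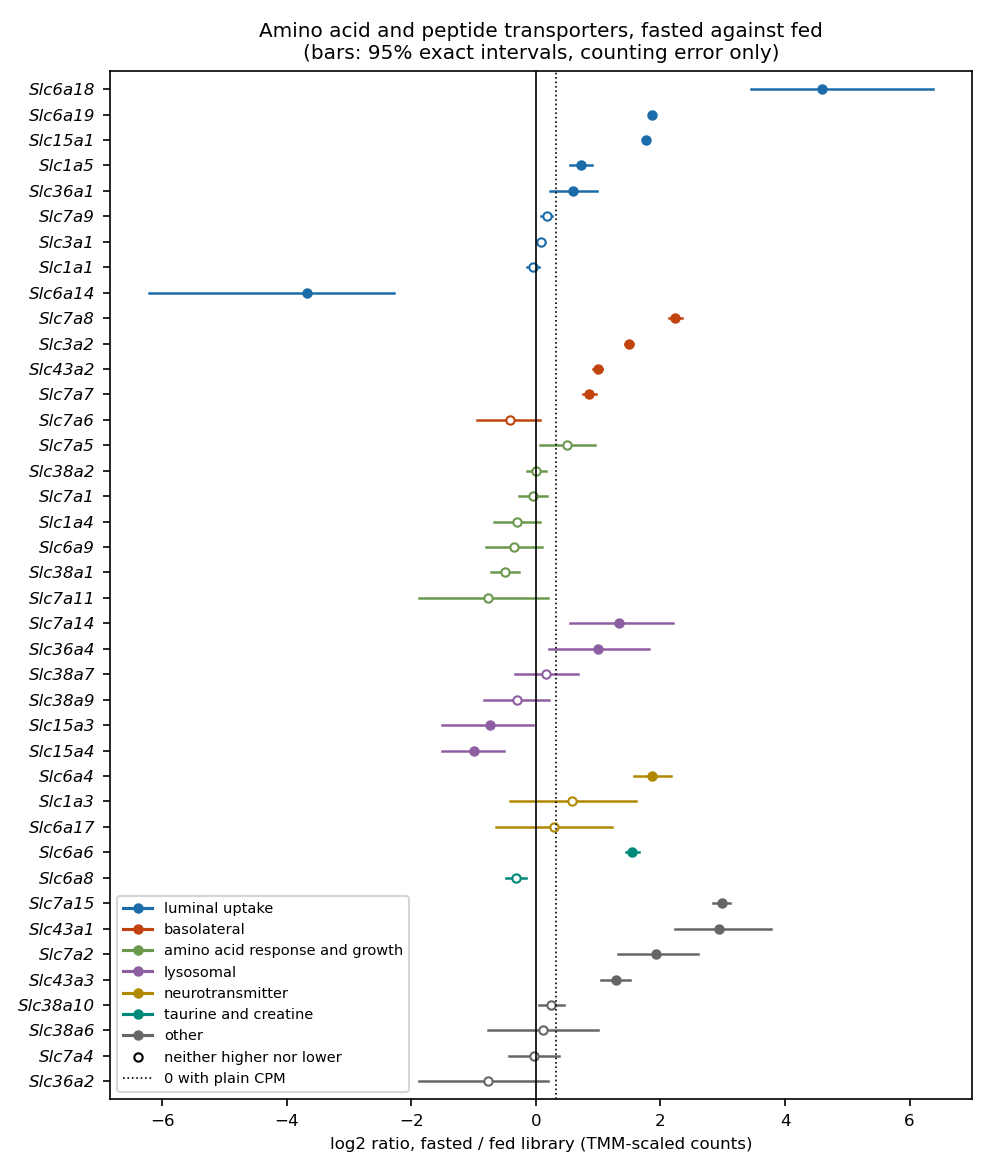
Fasted/fed log2 ratios of the 40 measured transporters (x axis, TMM-scaled counts), by role, with bars for the 95% exact interval of counting error. Filled points are the 17 higher and 3 lower members, open points the 20 that were neither, and the dotted line marks where 0 lies with plain CPM; Slc7a15 (2.98) and Slc7a8 (2.23) lie furthest to the right among members with at least 200 counts, and the 7 amino acid response and growth members are all open points.

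Carriers of luminal uptake included the members with most footprints. Of 9 measured, 5 were higher, 1 lower and 3 neither (3 higher and 1 lower with plain CPM), at a median log2 ratio of 0.60. Slc15a1 (ENSMUSG00000025557, chromosome 14, 121459621 to 121505252), the proton-coupled carrier that takes up nearly all di- and tripeptides in the gut, had 7930 fed and 21118 fasted counts. Scaled by TMM, these were 1276 and 4346 CPM, 3.41-fold higher (log2 ratio 1.77, 95% interval 1.73 to 1.81). Slc6a19 (ENSMUSG00000021565, chromosome 13, 73679745 to 73704865), the sodium-coupled carrier of neutral amino acids whose loss in humans causes Hartnup disorder, had 6319 and 17974 counts. Its level was 1016 fed and 3699 fasted CPM, 3.64-fold higher (1.86, 1.82 to 1.91). Both genes thus had similar ratios and similar levels. Per kb of coding sequence, Slc15a1 footprints stood at 1.12 times those of Slc6a19 in the fed library (95% exact interval 1.09 to 1.16) and at 1.05 times in the fasted library (1.03 to 1.07).

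Slc6a18, a neutral amino acid carrier best known from the kidney, lies 1721 bases from Slc6a19 on the same strand of chromosome 13. It had 5 fed and 103 fasted counts, the highest ratio of any measured member at 24.1-fold (log2 ratio 4.59, 3.45 to 6.37). With only 5 fed counts the size of this ratio is uncertain, and with 2 added counts its log2 value was 4.26. Slc6a18 stayed a minor gene, since Slc6a19 had 169 times its footprints per kb in the fasted library (139 to 208). The next gene of the family on that side of the cluster, the dopamine transporter Slc6a3, had 2 and 11 counts and was not measured.

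Slc3a1 and Slc7a9 form the luminal exchanger of cystine and basic amino acids, and loss of either causes cystinuria. Slc3a1, the heavy subunit, had 4327 fed and 3579 fasted counts, or 696 and 737 CPM (log2 ratio 0.082, 0.017 to 0.15). Slc7a9, the light subunit, had 2314 and 2037 counts, or 372 and 419 CPM (0.17, 0.085 to 0.26). Both were therefore neither higher nor lower, and both ratios turn negative with plain CPM. Slc1a1, the sodium-coupled carrier of glutamate and aspartate, was also level at 340 and 329 CPM, from 2114 and 1598 counts (-0.048, -0.14 to 0.046). Of its coding 28-base stretches 76.1% lie opposite exons of 4430402I18Rik, which had 0 and 4 counts. The strand setting of the counting is not given, so how reads of those stretches were assigned is not known. Any that were set aside as ambiguous are missing from the Slc1a1 counts. For Slc3a1 20.4% of the coding stretches lie opposite Prepl, with 219 and 139 counts.

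The remaining luminal carriers were far less abundant. Slc1a5, an exchanger of neutral amino acids that favours glutamine, had 473 fed and 610 fasted counts (log2 ratio 0.72, 0.55 to 0.90). Slc36a1, which moves proline, glycine and alanine with protons, had 108 and 128 counts (0.60, 0.22 to 0.98). Both were just past 1.5-fold and neither was with plain CPM (0.40 and 0.28). Slc6a14, a concentrative carrier of neutral and basic amino acids, went the other way, with 57 fed and 3 fasted counts. Its level was 12.8-fold lower (-3.68, -6.21 to -2.27), the lowest ratio of the 40 measured members. With only 3 fasted counts the size of this ratio is uncertain, and with 2 added counts it was -3.21.

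Basolateral carriers were mostly higher, with 4 of 5 measured higher and 1 neither (3 higher and 1 lower with plain CPM), at a median log2 ratio of 0.99. Slc7a8, the light subunit of an exchanger of small and large neutral amino acids, had 955 fed and 3512 fasted counts. Its level rose from 154 to 723 CPM, 4.70-fold higher (2.23, 2.13 to 2.34). Slc7a7, the light subunit that exports basic amino acids in exchange for neutral ones and sodium, and whose loss causes lysinuric protein intolerance, had 1280 and 1811 counts (0.86, 0.75 to 0.96; 0.53 with plain CPM, where it was neither). The related Slc7a6 had 93 and 54 counts (-0.42, -0.94 to 0.070). Slc43a2, a facilitator of branched-chain and aromatic amino acids that needs no heavy subunit, had 2667 and 4142 counts, 1.99-fold higher (0.99, 0.92 to 1.06).

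Slc3a2 (ENSMUSG00000010095, chromosome 19, 8706882 to 8723369) is the heavy subunit shared by the light subunits Slc7a5, Slc7a6, Slc7a7, Slc7a8, Slc7a10 and Slc7a11. It had 2551 fed and 5603 fasted counts, 2.81-fold higher (log2 ratio 1.49, 1.42 to 1.56). These 6 light subunits, with 2445 and 5486 counts between them, were 2.87-fold higher in sum (1.52, 1.45 to 1.59). Slc3a2 and the sum of these 6 had close to equal levels per kb of coding length in each library. They stood at 242 and 253 CPM per kb in the fed, 680 and 719 in the fasted. The heavy/light ratio was 0.957 in the fed library (95% exact interval 0.905 to 1.01) and 0.946 in the fasted library (0.911 to 0.982). Slc7a15, another Slc7 member (56.3 fed and 444 fasted CPM per kb), was left out of the sum and of the luminal pair below. The near-equal levels therefore hold for the 6 named light subunits only. What differed was the make-up of the summed light side. Slc7a7 made up 53.2% of it per kb in the fed library and 33.9% in the fasted one, and Slc7a8 38.1% and 63.1%. Slc7a5, Slc7a6, Slc7a10 and Slc7a11 together stayed the minor part in both. For the luminal pair the heavy/light ratio, Slc3a1 over Slc7a9, was 1.33 in the fed (1.26 to 1.40) and 1.25 in the fasted library (1.18 to 1.32), and those intervals overlap.

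**Figure D2:**
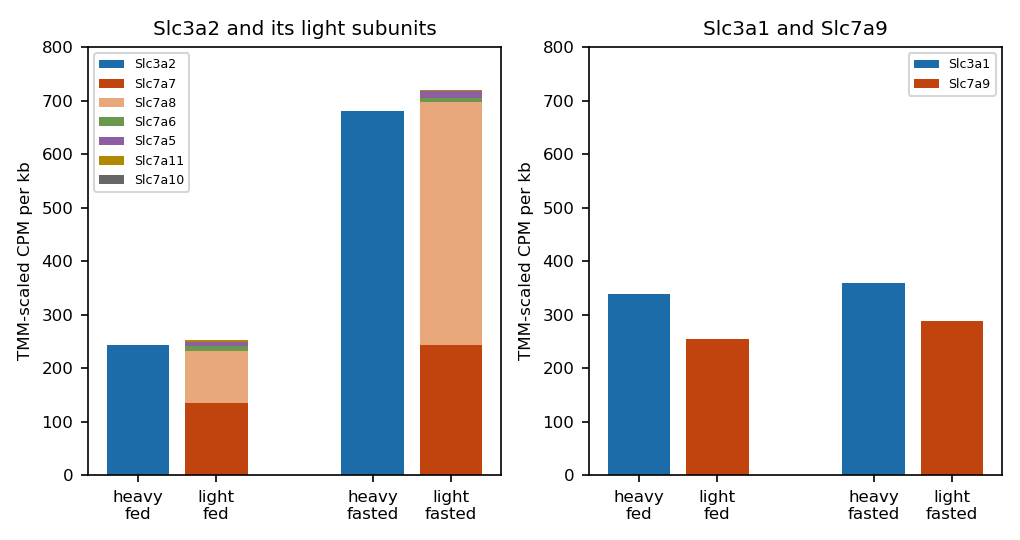
Footprint levels of heavy subunits and their light subunits (y axis, TMM-scaled CPM per kb of coding length, bars from 0), 1 library per condition with no error bars. On the left Slc3a2 and 6 stacked light subunits, without Slc7a15, stand near 242 and 253 in the fed library. In the fasted library they stand near 680 and 719, with a larger Slc7a8 share. On the right Slc3a1 and Slc7a9 stay at similar heights.

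Members grouped here as targets of the amino acid response or as suppliers of growing cells passed the rule in neither direction. Each member stood in a single role group, even where roles overlap. Slc3a2 (1.49) and Slc1a5 (0.72), both higher, the latter not with plain CPM, were counted with the basolateral and luminal carriers. All 7 measured members of the response and growth group were neither, with 0 higher and 0 lower. Of all 11333 measured genes 7415 were neither by the same rule. The median log2 ratio of the 7 was -0.30 (-0.62 with plain CPM). With plain CPM 4 of the 7 were lower, and 31.2% of all measured genes. Slc38a2, the sodium-coupled carrier of small neutral amino acids that cells induce when starved of them, had 828 fed and 651 fasted counts, or 133 and 134 CPM (0.0087, -0.14 to 0.16). Slc7a1, the widespread carrier of arginine and lysine, had 384 and 291 counts (-0.044, -0.27 to 0.18). Slc7a5, the light subunit for large neutral amino acids, had 84 and 93 counts, and at 1.42-fold (0.50, 0.061 to 0.95) stayed short of the threshold. Below 0 were Slc38a1, a glutamine carrier (438 and 243 counts; -0.49, -0.73 to -0.27), Slc1a4, an alanine, serine and cysteine exchanger (164 and 104 counts; -0.30), Slc6a9, a glycine transporter (111 and 68 counts; -0.35), and Slc7a11, the cystine/glutamate exchanger (29 and 13 counts; -0.77, -1.87 to 0.19). These 4 are the ones counted as lower with plain CPM. Slc7a3 had 2 counts in each library.

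Lysosomal members had low counts and went both ways, with 2 higher, 2 lower and 2 neither of 6 measured, at a median log2 ratio of -0.065 (1 higher and 3 lower with plain CPM). Lower were Slc15a4 (126 and 49 counts; -0.998, -1.51 to -0.52) and Slc15a3 (54 and 25 counts; -0.74, -1.50 to -0.046), which export peptides and histidine from lysosomes and are known chiefly from immune cells. In the same direction, 5 of 8 immune cell markers were lower and 0 higher, against 17.3% lower over all measured genes (31.2% with plain CPM). The markers' summed level went from 3819 to 1969 CPM with none at 0. Most of that sum was Cd74 (2811 and 1460 CPM) and Jchain (729 and 331). Neither were Cd3e (-0.43), Lyz2 (-0.36) and Cd8a (-0.19), of which Cd3e and Lyz2 were lower with plain CPM. The part of immune cells in the values of Slc15a3 and Slc15a4 was not tested. Exons of both overlap a gene on the other strand. For Slc15a4 this is Gm43474 (0 counts in each library), opposite 20.7% of its coding 28-base stretches. For Slc15a3 it is Tmem132a (33 and 16 counts). At a 2-fold threshold Slc15a3 was not lower. Higher were Slc7a14 (20 and 40 counts; 1.34, 0.55 to 2.21) and Slc36a4 (23 and 36 counts; 0.99, 0.21 to 1.82; neither with plain CPM). Slc38a9, the lysosomal arginine sensor that signals to mTORC1, had 82 and 52 counts (-0.30, -0.83 to 0.22; -0.62 with plain CPM, where it was lower), and Slc38a7, an exporter of lysosomal glutamine, had 73 and 64 (0.17, -0.34 to 0.67).

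Transporters of neurotransmitters were mostly too rare to measure, at 3 of 14. Slc6a4, which clears serotonin and in the gut is made by enterocytes as well as nerves, had 126 fed and 360 fasted counts, 3.65-fold higher (1.87, 1.57 to 2.17). The glial glutamate transporter Slc1a3 had 17 and 20 counts (0.58, -0.42 to 1.61), and the synaptic vesicle carrier Slc6a17 had 22 and 21 (0.29, -0.65 to 1.22), both neither. Of 8 neuron markers 7 were higher and 0 lower (3 higher with plain CPM), at summed levels of 56.5 and 109 CPM with none at 0. Over all measured genes 17.3% were higher (8.86% with plain CPM). Of 6 glia markers 3 were measured, 1 higher and 1 lower, at 453 and 857 CPM in sum, of which the epithelial gene Erbb3 gave 411 and 832, and Gfap had 5 fed and 0 fasted counts. The part of nerve cells in the Slc6a4 value was not tested.

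Among carriers of small solutes, Slc6a6, which takes up taurine, had 990 fed and 2265 fasted counts, 2.93-fold higher (1.55, 1.44 to 1.66). The creatine carrier Slc6a8 had 831 and 522 counts (-0.31, -0.48 to -0.16) and was neither, though lower with plain CPM (-0.64). Their relative for betaine and GABA, Slc6a12, was the only member with no count in either library.

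The other members held several of the highest ratios, with 4 of 8 measured higher, 0 lower and 4 neither. Slc7a15 (ENSMUSG00000020600, chromosome 12, 8528483 to 8599066) had 512 fed and 3161 fasted counts. Its level rose from 82.4 to 651 CPM, 7.89-fold higher (2.98, 2.85 to 3.12), the highest ratio among members with at least 200 counts, and none of its coding 28-base stretches occurs in another annotated gene. Per kb it moved from place 13 of the 61 members in the fed to place 6 in the fasted library. Slc43a1, a facilitator of large neutral amino acids, had 18 and 110 counts, 7.64-fold higher (2.93, 2.24 to 3.77). Slc43a3, a carrier of purine bases rather than amino acids, lies 72984 bases from Slc43a1 on chromosome 2 and had 235 and 446 counts (1.28, 1.05 to 1.51). With Slc43a2, all 3 members of the Slc43 family were higher, also with plain CPM. Slc7a2, an inducible carrier of basic amino acids, had 29 and 87 counts (1.92, 1.32 to 2.60).

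Neither higher nor lower were Slc38a10 (420 and 389 counts; 0.24), Slc38a6 (26 and 22; 0.12), Slc7a4 (124 and 95; -0.027) and Slc36a2 (29 and 13; -0.77, -1.87 to 0.19, lower with plain CPM). All 6 measured members of the Slc38 family, the sodium-coupled neutral amino acid transporters, were thus neither, with log2 ratios from -0.49 to 0.24. Of all 11333 measured genes 7415 were neither. With plain CPM 2 of the 6 Slc38 members, Slc38a1 (-0.82) and Slc38a9 (-0.62), were lower. The summed level of these 6 was 300.3 fed and 292 fasted CPM. The Slc6 family had 4 of 8 measured higher and 1 lower, and Slc7 had 5 of 11 higher and 0 lower.

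Another 21 members were not measured. Of these, 20 had between 1 and 28 counts over both libraries, among them Slc15a5 with 2 fed and 20 fasted counts, Slc15a2 with 1 and 12, and Slc38a3 with 8 and 0. Slc38a11 had 14 in each. For scale, a floor of 3 counts is 0.483 fed and 0.617 fasted CPM.

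**Figure D3:**
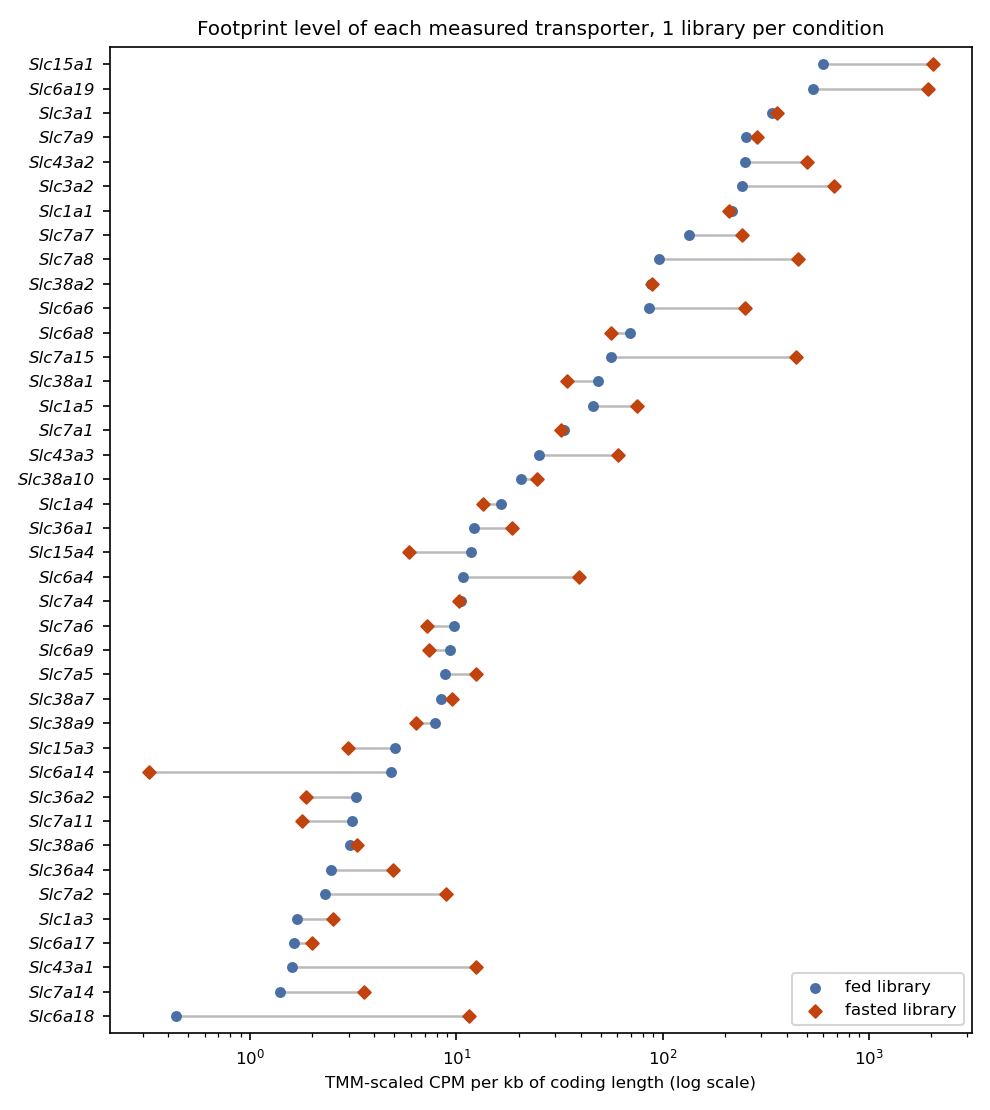
TMM-scaled footprint level per kb of coding length (x axis, log scale) of the 40 measured transporters in the fed (circles) and fasted (diamonds) library, ordered by fed level. Levels run from 600 CPM per kb for Slc15a1 to 0.436 for Slc6a18 in the fed library, and the longest lines belong to Slc6a18, Slc6a14, Slc7a15 and Slc43a1.

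Levels per kb of coding length spanned more than 3 orders of magnitude. In the fed library the order ran from Slc15a1 (600 CPM per kb) and Slc6a19 (534) over Slc3a1 (339), Slc7a9 (255), Slc43a2 (252), Slc3a2 (242) and Slc1a1 (217) to Slc7a7 (135). In the fasted library Slc15a1 (2043) and Slc6a19 (1945) stood further ahead of Slc3a2 (680), Slc43a2 (500), Slc7a8 (454), Slc7a15 (444), Slc3a1 (358) and Slc7a9 (287). The luminal exchanger subunits thus came right behind the leading pair in the fed library and behind Slc3a2, Slc43a2, Slc7a8 and Slc7a15 in the fasted one.

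Genes that work with these carriers were given by a list chosen with earlier results known. Of its 8 measured genes 4 were higher, 1 lower and 3 neither (3 higher with plain CPM), and the median log2 ratio was 0.57. Slc6a20a, the luminal proline carrier, had 1013 and 1571 counts (0.99, 0.87 to 1.104), its copy Slc6a20b only 10 and 12 (not measured), and Slc16a10, the basolateral facilitator of aromatic amino acids, 791 and 1377 (1.15, 1.03 to 1.28).

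The scaffold genes Slc9a3r1 (1.05, 0.99 to 1.11) and Pdzk1 (0.64, 0.56 to 0.71), which anchor brush border carriers, were higher, the latter not with plain CPM. Slc9a3, the sodium/proton exchanger that sustains the proton gradient for Slc15a1, was lower (464 and 189 counts; -0.94, -1.19 to -0.69). The sodium pump subunit Atp1b1 (0.37) and the lysosomal cystine and basic amino acid exporters Ctns (0.18) and Pqlc2 (0.51) were neither.

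Listed peptidases were also mostly higher, 10 of 14 with 0 lower (6 higher with plain CPM), at a median log2 ratio of 0.81. By the same rule 17.3% of all measured genes were higher (8.86% with plain CPM). The highest of the listed peptidases were Mme (1.72, 1.61 to 1.83) and Xpnpep2 (1.64, 1.60 to 1.69), and the lowest Ace (0.056) and Anpep (0.20, or -0.13 with plain CPM). Of 12 enterocyte markers 6 were higher and 0 lower (4 higher with plain CPM), with a median log2 ratio of 0.62. Higher were the lipid-handling genes Fabp1 (2.86), Fabp2 (1.67) and Apoa1 (1.66) and the microvillus genes Ezr (1.59), Myo1a (0.84) and Vil1 (0.65), the last 2 not with plain CPM. Neither were Alpi (0.58), Cdhr5 (0.42), Cdh17 (0.26), Cdhr2 (0.17), Epcam (0.028) and Krt20 (0.016). With plain CPM the ratios of Cdh17 (-0.066), Cdhr2 (-0.15), Epcam (-0.29) and Krt20 (-0.31) were below 0. The summed level of the 12 genes was 31236 fed and 64881 fasted CPM with none at 0. Of this Apoa1 and Fabp2 gave 11626 and 36932, and the other 10 genes 19610 and 27949. Markers of smooth muscle (6 of 8 lower, 5457 and 3070 CPM in sum) and of fibroblasts (5 of 7 lower and 2 higher, 4421 and 1710 CPM) had lower sums in the fasted library. Over all measured genes 17.3% were lower (31.2% with plain CPM). In the fibroblast list 3 collagen genes carried the lower sum (3653 and 589 CPM), while the other 4 had 768 and 1122 CPM in sum. These 4 went both ways. Dcn (434 and 771 CPM) and Pdgfra (163 and 268) were higher, but both counted as neither with plain CPM. Lum (101 and 36.8) and Dpt (69.7 and 45.3) were lower. Of 6 endothelial markers 2 were higher and 0 lower (336 and 518 CPM). The part of a different make-up of the tissue in the transporter values was not tested.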

How the data were processed

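Per the labels' protocols, nuclease-protected ribosome footprints were spun out of ileal lysates on a sucrose cushion. Their libraries were rRNA-depleted, PCR-amplified and read on an Illumina Genome Analyzer. The authors deposited raw read counts per gene symbol, 1 file per library. Per the submitters' processing notes, the build was mm10 and the tools, without their roles, were HTSeq, STAR, cutadapt and Bowtie 1.1.2. The sources used here do not give the annotation, the strand setting or a length filter. Entries given as NA were read as 0. Reads aligned to several places (41.4% of the fed and 39.9% of the fasted file) and to no counted feature (13.4% and 21.0%) had been assigned to no gene and were left out, as were ambiguous ones (0.209% and 0.196%).

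Library sizes were scaled over all genes with TMM in edgeR 4.0.16 (R 4.3.3), used for scaling only. Intervals are Clopper-Pearson intervals on the split of a gene's counts between the libraries (SciPy 1.17.1), treating reads as independent molecules. The functions were tested on simulated data. Coordinates (1-based), coding lengths (longest coding transcript) and overlaps are from GENCODE vM21 (GRCm38, the assembly of mm10), in which all 61 members were found. Of the 40 measured members, 27 had no coding 28-base stretch in another annotated gene on either strand and 7 had over 5% shared. Exons of 12 overlap another annotated gene. For the sum of light subunits the count-weighted mean length entered the interval. Alternatives were plain CPM, DESeq2 1.42.0 size factors, other count minimums, thresholds, intervals and added counts.

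The members, roles, lists and motifs were chosen with earlier results of these data known, so no pattern here is independent support for another. All measured members are named. Of the lists, all measured partner genes and the 2 highest and 2 lowest peptidases are named, as are all enterocyte markers, and of the other markers single genes were chosen after their values were seen. Some genes of the partner and peptidase lists are not reported here, and the counts of those lists leave them out.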

Additional observations from a re-analysis of the deposited data

How the results depend on the processing

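With DESeq2 size factors (a shift of -0.0041 in log2), no count or call summary of the members moved by over 1.5 times. Plain CPM gave 11 lower members in place of 3, turned the median log2 ratio from 0.27 to -0.0554 beside -0.32 for all measured genes, and brought the log2 ratio of the summed level from 1.31 to 0.983. A minimum of 200 counts left 22 members, with 12 higher and 0 lower (19.3% and 14.5% of the 6157 genes that reached it) and a median of 0.661. The summed log2 ratio was 1.15 without Slc15a1 and 0.867 without Slc15a1 and Slc6a19, the latter chosen after seeing the data. The alternatives run were no minimum, 200 counts, 2-fold, wider intervals and either scaling. Over these, higher members numbered between 12 (of 22 measured) and 20 (of 60), while 8.25% to 19.3% of all measured genes were higher. Lower members numbered between 0 and 11, while 9.13% to 31.2% of all measured genes were lower. No called member changed sign. Of the 40 members' ratios, 19 left their own interval with plain CPM and 0 with DESeq2 factors or 2 added counts. No paired analysis was possible because each condition has 1 library, and the replicate number is only a name. Members with under 30 counts were too shallow for a call. Counts of 20 to 60 allow only wide intervals, as for Slc7a11, Slc36a2 and Slc6a14.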
